A study of Mus musculus with 9 samples.

Results

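The genes described here carry pyruvate into the mitochondrion and oxidise it in the TCA cycle: Mpc1 and Mpc2 of the mitochondrial pyruvate carrier, Pdha1 of the pyruvate dehydrogenase complex, and Cs, Idh2, Idh3a, Ogdh, Suclg1, Suclg2 and Mdh2 of the cycle. They were listed by gene name, with earlier results of these data known. Each was read from the probe set whose platform annotation gives that symbol alone, and of several such probe sets the brightest on average was taken. In this way 9 of the 10 listed genes, out of 19938 genes in all, had a value, and Mpc2 was not analysed here. The arrays, Affymetrix Mouse Gene 1.0 ST, were hybridised with total RNA from the hearts of C57BL/6 mice at 3 postnatal ages, 24 hours, 7 days and 10 weeks, with 3 arrays per age and no treatment or genotype named in the labels. The labels call the tissue cardiac muscle of the heart. They do not say whether each array held a separate heart or a pool, so the p-values measure the spread between these samples only.

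Pyruvate made by glycolysis or from lactate crosses the inner mitochondrial membrane through a carrier built of Mpc1 and Mpc2. The pyruvate dehydrogenase complex turns it into acetyl-CoA, and kinases switch the complex off by phosphorylating its alpha subunit while phosphatases switch it back on. The TCA cycle then oxidises acetyl-CoA and passes electrons to the respiratory chain. Around birth the mouse heart is known to take much of its energy from glucose and lactate, and to depend largely on fatty acids, whose acetyl-CoA enters the same cycle, once it is mature.

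The tissue label was checked first. The summed linear signal of 8 cardiomyocyte markers was 46200 to 46800 at 24 hours, 43600 to 44800 at 7 days and 44000 to 44800 at 10 weeks. Myh6, the heavy chain of the adult cardiac myosin, lay between 12.62 and 12.80 on the log2 scale in every array. Of these 8 markers 2 were called lower in the first week, and 4 lower and 1 higher from 24 hours to 10 weeks. Myh6 was among the lower at 10 weeks, with a difference of -0.14 from 24 hours (adjusted p = 0.0152, limma). Ucp1, which defines brown fat, read 4.30, 11.23 and 9.27 in 7-day arrays 1, 2 and 3, against 3.92 to 4.27 in the other 6 arrays. The 6 measured brown fat markers summed to 371, 3350 and 1040 in these 7-day arrays, to 306 to 333 at 24 hours and to 340 to 358 at 10 weeks. Thus 7-day arrays 2 and 3 stood apart from their labelled tissue, and results that rest on them are also given without them, which leaves a lone 7-day array that is assumed to vary like the other ages. Array 2 at 7 days also had the highest sums of the liver and the lung and airway markers, 469 and 197. The 5 measured markers of fat of any kind summed to 112 to 116 at 24 hours and to 113, 694 and 191 at 7 days. In 10-week arrays 1, 2 and 3 they summed to 193, 238 and 128, so fat signal was not confined to the 7-day arrays. Its part in the 10-week values was not tested. Atrial, fibroblast, macrophage and erythroid markers moved with age: the summed signal of 5 atrial markers was 11300 to 14400, 12600 to 14800 and 5900 to 7090 at 24 hours, 7 days and 10 weeks, that of 6 fibroblast markers 6000 to 7240, 10400 to 13000 and 6990 to 8160, that of 4 macrophage markers 380 to 428, 560 to 614 and 813 to 1040, and that of 2 erythroid markers 285 to 471, 534 to 720 and 66.5 to 196. The sums cover unequal values: Myl7, an atrial marker, read 4.70, 8.43 and 7.52 at 10 weeks, against 10.27 to 11.37 in the younger arrays. Of the 6 fibroblast markers 3 were called higher and 2 lower from 24 hours to 10 weeks. Of 5 endothelial markers 3 were called lower from 7 days to 10 weeks. The part of these cells in the results was not tested. In RNA of whole tissue, fewer cells of a type and less RNA per cell cannot be told apart.

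Among the carrier, pyruvate dehydrogenase and TCA cycle genes, Mpc1, Pdha1, Idh2, Ogdh and Suclg2 rose from 7 days to 10 weeks, while in the first week Mpc1 rose and Idh2 and Suclg2 fell. A gene was called when its adjusted p from limma, taken over all 19938 genes, was under 0.05. From 24 hours to 7 days 1 of the 9 genes was called higher and 2 lower, while 5.27% of all genes were called higher and 4.81% lower. From 7 days to 10 weeks 5 were called higher and 0 lower, against 17.0% higher and 18.9% lower of all genes. From 24 hours to 10 weeks 4 were called higher and 1 lower, against 19.5% and 20.6%. More genes of the whole array, too, were called at the second step than at the first. These shares of all genes are also the background for the counts of every other list below. The median log2 difference of the 9 genes was -0.049, 0.181 and 0.03 in these 3 comparisons, beside -0.002, 0.039 and 0.038 for all genes. The comparisons share arrays, since the 7-day hearts enter the first as the later age and the second as the earlier age. Without 7-day arrays 2 and 3, the first-week differences were 0.51 for Mpc1, -0.21 for Idh2 and -0.51 for Suclg2. The calls of Mpc1 and Idh2 were then lost and that of Suclg2 was kept, while Cs, at -0.35, was newly called. At the second step the calls of Pdha1 and Idh2 were lost without these arrays. Without 24-hour array 2, 1 gene was called at the first step.

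**Figure D1:**
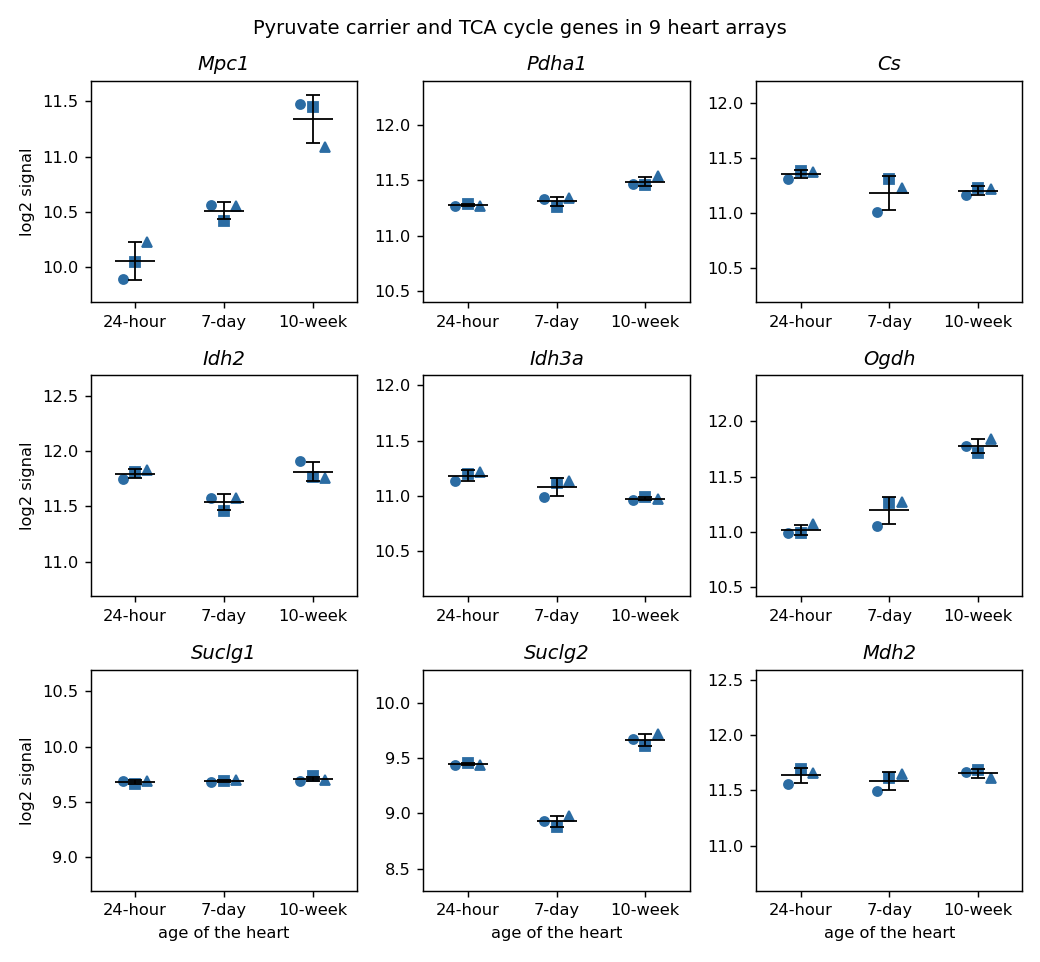
Log2 signal (vertical axis, the same span of 2 log2 units in every panel) of 9 pyruvate carrier, pyruvate dehydrogenase and TCA cycle genes in hearts of 3 ages (horizontal axis); circles, squares and triangles are arrays 1, 2 and 3, and bars are the mean and SD of 3 arrays. Mpc1 climbs from 9.89 to 10.23 at 24 hours to 11.09 to 11.48 at 10 weeks, Suclg2 dips to 8.88 to 8.98 at 7 days, and Suclg1 stays between 9.66 and 9.73.

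Mpc1, the carrier subunit measured, had the largest difference of the 9 genes between the youngest and the oldest hearts. Its log2 signal was 9.89, 10.05 and 10.23 at 24 hours, 10.56, 10.42 and 10.55 at 7 days, and 11.48, 11.45 and 11.09 at 10 weeks. The 3 ages did not overlap. It rose by 0.45 ± 0.11 (SE, n = 3 per age) in the first week (adjusted p = 0.027, limma) and by a further 0.83 ± 0.11 to 10 weeks (adjusted p = 0.000171, limma). From 24 hours to 10 weeks the rise was 1.28 ± 0.11, or 2.43-fold (adjusted p = 5.56e-06, limma). The rise of the first week was not called without 24-hour array 1 (0.37, adjusted p = 0.11, limma), 24-hour array 2 (0.0912), 7-day array 1 (0.0892) or 7-day array 3 (0.1), nor without 7-day arrays 2 and 3, where the difference was 0.51 (0.215).

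The identity of the Mpc1 signal carries a limit. On this array the numbers of probe sets follow the genome: for 96.9% of the probe sets with 1 symbol, the 10 nearest by number belong mostly to genes of the same chromosome. Mpc1 is on chromosome 17, but all 10 neighbours of its only probe set, 10402648, are genes of chromosome 12. The RefSeq gene table of GRCm38.p6 lists a pseudogene, Mpc1-ps, on chromosome 12. Whether these probes read Mpc1, the pseudogene or both was not tested.

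Pdha1, the alpha subunit of the first enzyme of the pyruvate dehydrogenase complex and the target of its kinases, was slightly higher at 10 weeks than before. It read 11.27, 11.29 and 11.27 at 24 hours, 11.33, 11.26 and 11.34 at 7 days, and 11.47, 11.46 and 11.54 at 10 weeks. Every 10-week array was above every younger array, while the 24-hour and 7-day arrays overlapped. The difference was 0.03 ± 0.04 in the first week (adjusted p = 0.814, limma), 0.18 ± 0.04 from 7 days to 10 weeks (adjusted p = 0.00635, limma) and 0.21 ± 0.04, or 1.16-fold, over the whole time (adjusted p = 0.00232, limma). Without 7-day arrays 2 and 3 the 7-day to 10-week difference was 0.16 and was not called (adjusted p = 0.0991, limma).

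Of the 4 other subunits of the complex, 2 were called higher from 7 days to 10 weeks and from 24 hours to 10 weeks, and 0 in the first week. Dlat, the acetyltransferase core, was higher at 10 weeks than at 7 days by 0.33 ± 0.07 (adjusted p = 0.00228, limma), and Pdhx, which anchors the dihydrolipoamide dehydrogenase, by 0.32 ± 0.08 (adjusted p = 0.00843, limma). The call of Pdhx at this step was lost without 7-day arrays 2 and 3 (adjusted p = 0.146, limma), while its 24-hour to 10-week difference was 0.46 ± 0.08. Pdhb, the beta subunit that pairs with Pdha1, and Dld, the dihydrolipoamide dehydrogenase, were not called in any comparison, with differences of -0.04 to 0.04.

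The kinases and phosphatases of the complex moved in different directions, with 24-hour to 10-week differences from -3.45 to 1.64. Pdk3, a kinase, was 8.13, 8.20 and 8.25 at 24 hours, 6.97, 6.96 and 6.96 at 7 days, and 4.66, 4.75 and 4.81 at 10 weeks. It fell by 1.23 ± 0.06 in the first week (adjusted p = 4.2e-06, limma) and fell by 3.45 ± 0.06, or 11.0-fold, from 24 hours to 10 weeks (adjusted p = 4.64e-10, limma). The 10-week values of Pdk3 lay just under the array medians of 4.876 to 4.924, and without detection flags the fold can be too small. Pdk2 ended higher. It read 10.06, 10.06 and 10.04 at 24 hours, 9.93, 9.91 and 9.92 at 7 days, and 10.83, 10.81 and 10.77 at 10 weeks. Its first-week difference of -0.13 ± 0.04 was not called (adjusted p = 0.0701, limma), though the ages did not overlap and it was called with centred arrays (0.032), with the 6 arrays of these ages alone (0.0441), with genes above the median signal (0.0456) and without 10-week array 3 (0.0417). At 10 weeks it was 0.88 ± 0.04 above 7 days (adjusted p = 1.08e-07, limma). Pdk4, the kinase induced by fasting and fatty acids, was 10.11 to 10.39 in the younger arrays and 9.23, 9.25 and 9.33 at 10 weeks, where it had fallen by 0.98 ± 0.08 since 7 days (adjusted p = 3.41e-06, limma). Pdk1, a kinase induced in low oxygen, dipped at 7 days, with 8.97 to 9.09 at 24 hours, 8.51 to 8.68 at 7 days and 8.99 to 9.24 at 10 weeks. It fell by 0.42 ± 0.08 (adjusted p = 0.00555, limma) and rose again by 0.50 ± 0.08 (adjusted p = 0.000386, limma), and without 7-day arrays 2 and 3 the fall was not called (adjusted p = 0.194, limma).

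The catalytic phosphatase subunit Pdp2 read 4.57 to 4.77 in the 6 younger arrays, just under the array medians, and 6.22, 6.14 and 6.58 at 10 weeks. Its rise from 7 days was 1.60 ± 0.11 (adjusted p = 1.41e-06, limma), and this change, too, can be too small if the younger values are background. The other catalytic subunit, Pdp1, rose by 0.30 ± 0.07 over the same interval (adjusted p = 0.00873, limma), a call that was lost without 7-day arrays 2 and 3 (adjusted p = 0.153, limma). Pdpr, the regulatory subunit, fell by 0.35 ± 0.08 in the first week (adjusted p = 0.0169, limma) and rose by 0.89 ± 0.08 to 10 weeks (adjusted p = 7.31e-06, limma). That fall was not called without 24-hour array 1 (0.0738), 24-hour array 2 (0.0545), 7-day array 1 (0.0652) or 7-day arrays 2 and 3 (0.0934). Of the 7 kinases and phosphatase subunits, 0 were higher and 3 lower in the first week, and 5 were higher and 2 lower from 7 days to 10 weeks. The median difference of the 7 was -0.133 and 0.502 at these steps. The first-week count of 3 was 1 without 7-day arrays 2 and 3 and 2 to 4 with any single array left out.

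**Figure D2:**
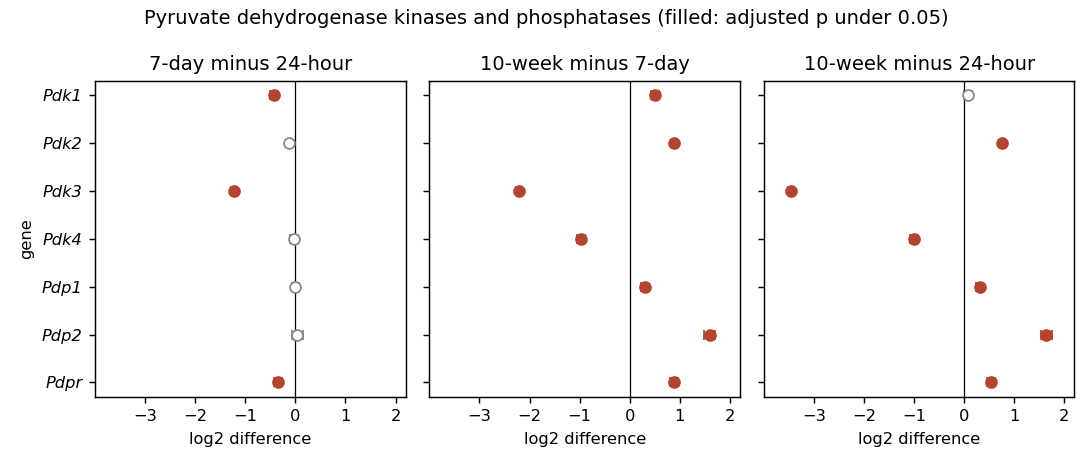
Log2 differences between ages (horizontal axis; bars, standard error from limma, n = 3 arrays per age) for the kinases (Pdk1 to Pdk4) and phosphatase subunits (Pdp1, Pdp2, Pdpr) of pyruvate dehydrogenase, with filled points for an adjusted p under 0.05. Pdk3 lies far to the left in each panel, at -1.23, -2.22 and -3.45, while Pdp2 lies to the right at 1.60 and 1.64 in the comparisons with 10 weeks.

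Cs, citrate synthase, which joins acetyl-CoA to oxaloacetate and is widely used as a measure of mitochondrial content, had no call. It read 11.31, 11.38 and 11.37 at 24 hours, 11.01, 11.31 and 11.23 at 7 days, and 11.16, 11.23 and 11.22 at 10 weeks. The 10-week arrays were all below the 24-hour arrays, and the 7-day arrays spread across both. The differences were -0.17 ± 0.07, 0.02 ± 0.07 and -0.15 ± 0.07 for 7 days against 24 hours, 10 weeks against 7 days and 10 weeks against 24 hours (adjusted p = 0.191, 0.84 and 0.122, limma). Without 7-day array 1, the lowest, the 24-hour to 10-week difference was called (adjusted p = 0.0275, limma), and likewise without 7-day arrays 2 and 3 (0.0308) or with the 6 arrays of these ages fitted alone (0.0304). Without 7-day arrays 2 and 3 the first-week difference was -0.35 and was called as well (adjusted p = 0.0334, limma).

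The isocitrate dehydrogenases took different courses. Idh2, the NADP-dependent mitochondrial enzyme that supplies NADPH for antioxidant defence, was 11.75, 11.81 and 11.83 at 24 hours, 11.58, 11.46 and 11.58 at 7 days, and 11.91, 11.77 and 11.76 at 10 weeks. All 7-day arrays were below all others, and the youngest and oldest hearts overlapped. It fell by 0.26 ± 0.05 (adjusted p = 0.0136, limma) and rose by 0.28 ± 0.05 (adjusted p = 0.00224, limma), which left 0.02 ± 0.05 between 24 hours and 10 weeks. The fall was not called without 24-hour array 2 (0.0593), 24-hour array 3 (0.0559) or 7-day arrays 2 and 3 (0.217), and the rise not without 7-day arrays 2 and 3 (0.0641).

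Idh3a, the catalytic subunit of the NAD-dependent enzyme that runs the cycle itself, was 11.13, 11.20 and 11.22 at 24 hours, 10.99, 11.12 and 11.13 at 7 days, and 10.96, 10.99 and 10.97 at 10 weeks. Its oldest hearts were below its youngest in every array, and 7 days overlapped both. The 24-hour to 10-week fall of 0.21 ± 0.05 was called (adjusted p = 0.0069, limma) while neither step was (adjusted p = 0.298 and 0.124, limma). The second step, -0.11, became a call of -0.15 without 7-day array 1 (adjusted p = 0.0353, limma) and after quantile normalization (0.0465), whereas without 7-day arrays 2 and 3 it was -0.02 (adjusted p = 0.905, limma). With all 9 arrays, Idh3a was the only one of the 9 genes with a called decrease from 24 hours to 10 weeks. Its partner subunit Idh3b was higher at 10 weeks than at 24 hours by 0.19 ± 0.04 (adjusted p = 0.00542, limma), and Idh3g had no call.

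The log2 ratio of Idh2 to Idh3a within an array, which shows unequal change but not the relative level of the 2 transcripts, was 0.63, 0.60 and 0.61 at 24 hours, 0.59, 0.33 and 0.45 at 7 days, and 0.95, 0.78 and 0.79 at 10 weeks. It differed between the ages by an exact permutation test of the F statistic over all 1680 assignments of the arrays (p = 0.00357, 0.00446 after Benjamini-Hochberg adjustment over 5 gene pairs). This p is the smallest that the design gives. Between 2 ages of 3 arrays the smallest two-sided exact p is 0.1, so no pair of ages could pass the threshold by such a test.

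Ogdh, the catalytic subunit of the 2-oxoglutarate dehydrogenase complex, had the second largest gain of the 9 genes from 24 hours to 10 weeks. It read 10.99, 10.99 and 11.07 at 24 hours, 11.05, 11.26 and 11.27 at 7 days, and 11.78, 11.71 and 11.84 at 10 weeks. The 10-week arrays stood clear of the younger ones, and 7-day array 1 fell within the 24-hour range. It rose by 0.58 ± 0.06 from 7 days to 10 weeks (adjusted p = 4.6e-05, limma) and by 0.76 ± 0.06, or 1.69-fold, from 24 hours to 10 weeks (adjusted p = 5.09e-06, limma). The first-week difference, 0.18 ± 0.06, was not called (adjusted p = 0.132, limma), but was without 7-day array 1 (0.25, adjusted p = 0.0234, limma). Without 7-day arrays 2 and 3, those with high Ucp1, it was 0.03 (adjusted p = 0.979, limma). Ogdhl, a close relative of Ogdh best known from brain, read 4.93 to 5.38 in the younger arrays and 7.72, 7.83 and 7.77 at 10 weeks. It rose by 2.70 ± 0.08 after 7 days (adjusted p = 1.25e-08, limma), the largest difference among the carrier, dehydrogenase and cycle genes named here apart from Pdk3. Dlst, the core of the same complex, rose by 0.20 ± 0.05 over that interval (adjusted p = 0.00625, limma).

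Cs and Ogdh parted with age. The log2 ratio of Cs to Ogdh was 0.33, 0.39 and 0.30 at 24 hours, -0.04, 0.06 and -0.04 at 7 days, and -0.63, -0.48 and -0.61 at 10 weeks, with no overlap between ages (exact permutation p = 0.00357, 0.00446 after adjustment over 5 pairs).

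The start region of Ogdh is shown because, among the windows of the listed genes, only those of Ogdh held a motif searched for. RefSeq promoter windows of GRCm38.p6, from 250 bases before to 50 bases after a start, were searched on both strands for TNAAGGTCA (an estrogen-related receptor site), GCGCANGCG (the core of an NRF1 site) and CCGGAAGT (a GABP or other ETS site). Of all 32851 windows 1.28%, 6.25% and 3.89% held these letters. Of the 10 listed genes 9 had windows, 15 in all, and 2 windows held a match. These are overlapping windows of Ogdh that share the same NRF1 core, and the first of them, chr11:6292308-6292607 on the plus strand, is printed 5′ to 3′ with the match in capitals, its first base 15 before the start:
Ogdh: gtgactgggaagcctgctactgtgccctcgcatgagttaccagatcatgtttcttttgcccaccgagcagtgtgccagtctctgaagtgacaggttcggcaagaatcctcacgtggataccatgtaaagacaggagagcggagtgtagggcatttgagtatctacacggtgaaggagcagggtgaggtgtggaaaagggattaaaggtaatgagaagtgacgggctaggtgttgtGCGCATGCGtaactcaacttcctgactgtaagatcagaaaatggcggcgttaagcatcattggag
The other 4 Ogdh windows and those of Mpc1, Mpc2, Pdha1, Cs, Idh2, Suclg1, Suclg2 and Mdh2 held none of these letters. Idh3a had no window in the table.

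The subunits of succinyl-CoA ligase followed different courses. The enzyme pairs the alpha subunit Suclg1 with either of 2 beta subunits, Suclg2 in the GTP-forming enzyme or Sucla2 in the ATP-forming enzyme, which predominates in heart. The alpha subunit was level, the GTP-type beta subunit dipped at 7 days, and the ATP-type beta subunit climbed.

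Suclg1 was 9.69, 9.66 and 9.69 at 24 hours, 9.68, 9.69 and 9.70 at 7 days, and 9.69, 9.73 and 9.70 at 10 weeks. All ages overlapped, and the differences were 0.01, 0.02 and 0.03, each ± 0.04 (adjusted p = 0.929, 0.785 and 0.604, limma). Of its 9 deposited values 4 are identical, and 15.2% of all genes have at least 4 equal values. Suclg2 was 9.44, 9.46 and 9.44 at 24 hours, 8.93, 8.88 and 8.98 at 7 days, and 9.67, 9.61 and 9.72 at 10 weeks. The 3 ages lay apart, with 7 days lowest and 10 weeks highest. It fell by 0.51 ± 0.05 (adjusted p = 0.000154, limma), rose by 0.73 ± 0.05 (adjusted p = 1.28e-06, limma) and ended 0.22 ± 0.05 above 24 hours (adjusted p = 0.00403, limma). All 3 calls held under each alternative run, also without 7-day arrays 2 and 3.

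The Suclg2 probe set used, 10607497, has neighbours on the X chromosome, while the gene is on chromosome 6. A second probe set, 10546538, whose neighbours are on chromosome 6, was read after the values had been seen. It gave 9.02, 9.04 and 9.02 at 24 hours, 8.56, 8.55 and 8.56 at 7 days, and 9.29, 9.22 and 9.29 at 10 weeks. Its differences were -0.47, 0.71 and 0.24, and it was called in the same direction in all 3 comparisons (adjusted p = 0.000143, 8.45e-07 and 0.00141, limma).

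Sucla2 was 10.84, 10.71 and 10.76 at 24 hours, 10.95, 10.97 and 10.97 at 7 days, and 11.36, 11.24 and 11.30 at 10 weeks. It rose by 0.34 ± 0.05 after 7 days (adjusted p = 0.000309, limma) and by 0.53 ± 0.05 over the whole time (adjusted p = 1.01e-05, limma). Its first-week rise of 0.19 ± 0.05 (adjusted p = 0.0367, limma) was not called without 24-hour array 2 (0.155), 24-hour array 3 (0.109), 7-day array 1 (0.083), 7-day array 2 (0.0885), 7-day array 3 (0.116) or 7-day arrays 2 and 3 (0.336), nor after centring the arrays on their medians (0.0608), without the intensity trend (0.0654) or with all features tested (0.0599). The log2 ratio of Suclg2 to Sucla2 averaged -1.33 ± 0.07 (SD, n = 3), -2.03 ± 0.05 and -1.63 ± 0.06 at the 3 ages, and that of Suclg1 to Suclg2 0.24 ± 0.03, 0.76 ± 0.04 and 0.04 ± 0.07. Both ratios differed between ages (exact permutation p = 0.00357, 0.00446 after adjustment over 5 pairs).

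**Figure D3:**
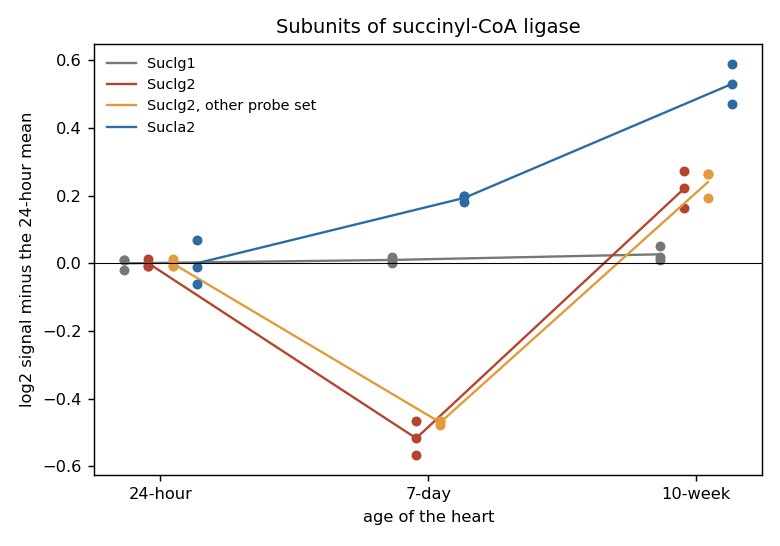
Log2 signal minus each probe set's own 24-hour mean (vertical axis) in hearts of 3 ages (horizontal axis) for the subunits of succinyl-CoA ligase; points are arrays, lines join the means of 3 arrays. The Suclg2 probe sets both dip at 7 days and end above 0, Sucla2 climbs at each age to 0.53, and Suclg1 stays near 0.

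The start regions of the beta subunits are printed here, Suclg2 at chr6:95718797-95719096 on the minus strand and Sucla2 at chr14:73552536-73552835 on the plus strand. Capitals mark the NRF1 core of Sucla2, which lies on the opposite strand with its first printed base 16 before the start. The Suclg2 window held no match to any of the 3 motifs, and neither did the windows of Pdk2, Pdk3, Pdk4 and Pdp2. Whether any of these motifs bears on the course of a gene was not tested.
Suclg2: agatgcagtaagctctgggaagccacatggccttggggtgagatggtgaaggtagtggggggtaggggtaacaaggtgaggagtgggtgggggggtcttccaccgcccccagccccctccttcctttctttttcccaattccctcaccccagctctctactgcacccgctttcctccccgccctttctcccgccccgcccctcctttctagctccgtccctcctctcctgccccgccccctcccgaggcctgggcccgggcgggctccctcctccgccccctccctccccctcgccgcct
Sucla2: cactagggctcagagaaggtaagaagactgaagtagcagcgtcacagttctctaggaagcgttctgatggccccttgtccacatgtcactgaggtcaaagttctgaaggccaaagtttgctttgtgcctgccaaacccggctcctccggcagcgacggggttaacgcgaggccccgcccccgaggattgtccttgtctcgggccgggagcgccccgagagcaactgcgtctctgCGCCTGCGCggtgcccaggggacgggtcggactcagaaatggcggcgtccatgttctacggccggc

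Mdh2, the mitochondrial malate dehydrogenase that closes the cycle by remaking oxaloacetate, was 11.56, 11.69 and 11.66 at 24 hours, 11.49, 11.61 and 11.65 at 7 days, and 11.67, 11.68 and 11.61 at 10 weeks. All ages overlapped. Its differences of -0.05, 0.07 and 0.02, each ± 0.05, were not called (adjusted p = 0.721, 0.37 and 0.822, limma). The log2 ratio of Mdh2 to Mdh1, its cytosolic counterpart in the malate-aspartate shuttle, averaged -0.57, -0.65 and -0.65, and no difference between ages was detected (exact permutation p = 0.457, also 0.457 after adjustment over 5 pairs), though without 7-day arrays 2 and 3 the adjusted p was 0.0357.

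**Figure D4:**
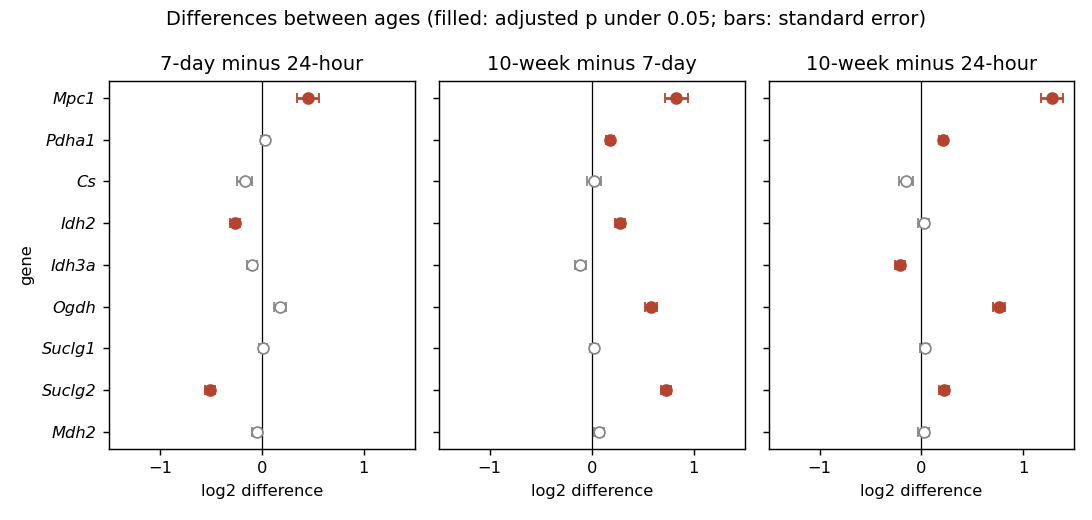
Log2 differences (horizontal axis; bars, standard error from limma, n = 3 arrays per age) of the 9 genes in 3 comparisons of age, with filled points for an adjusted p under 0.05. In the middle panel the 5 called genes, Mpc1, Pdha1, Idh2, Ogdh and Suclg2, lie to the right of 0, between 0.18 and 0.83.

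The 7-day arrays of Cs, Idh3a, Ogdh, Suclg1 and Mdh2, 5 of the 9 genes, had their lowest value in array 1, where Ucp1 was 4.30, while Mpc1 and Idh2 had their highest there, and Pdha1 and Suclg2 lay between. The part of fat transcripts in these values was not tested. The levels of Suclg2 in the 3 arrays, 8.93, 8.88 and 8.98, lay within 0.1 of each other.

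Succinate dehydrogenase, which also sits in the respiratory chain, and fumarase make up the rest of the cycle between Suclg1 and Mdh2. Sdha, the flavoprotein subunit, fell by 0.20 ± 0.04 in the first week (adjusted p = 0.0163, limma) and rose by 0.21 ± 0.04 after it (adjusted p = 0.00352, limma). That fall was not called without 24-hour array 1 (0.07), 24-hour array 2 (0.0544), 7-day array 1 (0.0575) or 7-day arrays 2 and 3 (0.147). Sdhb, the iron-sulfur subunit, rose by 0.40 ± 0.06 from 7 days to 10 weeks (adjusted p = 0.000439, limma). Sdhd, a membrane anchor, and Fh1, fumarase, had no call. Of the 10 measured cycle subunits outside the 9 genes, 1 was higher and 1 lower in the first week, 7 were higher and 0 lower from 7 days to 10 weeks, and 5 were higher and 0 lower from 24 hours to 10 weeks, with median differences of -0.071, 0.203 and 0.158. The first-week calls, Sucla2 and Sdha, came to 0 without 7-day arrays 2 and 3, without 24-hour array 2 or without 7-day array 1, and to 1 without 24-hour array 1 or 3 or 7-day array 2 or 3 alone. The 7 calls of the second step were Idh3b, Dlst, Ogdhl, Sucla2, Sdha, Sdhb and Sdhc, of which Idh3b (0.135) and Sdhc (0.105) were lost without 7-day arrays 2 and 3, and Sdhc (0.0503) also without 7-day array 2.

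The malic enzymes and other enzymes that exchange carbon with the cycle at points other than acetyl-CoA included some of the larger changes. Me3, a mitochondrial malic enzyme, was 7.62, 7.65 and 7.60 at 24 hours, 8.72, 8.61 and 8.79 at 7 days, and 9.61, 9.38 and 9.62 at 10 weeks. It rose by 1.08 ± 0.07 and then by 0.83 ± 0.07 (adjusted p = 1.81e-05 and 9.39e-06, limma). Me1, the cytosolic malic enzyme, rose by 1.04 ± 0.11 at the second step only (adjusted p = 2.96e-05, limma, and 0.789 at the first). Pcx, pyruvate carboxylase, which makes oxaloacetate from pyruvate, spread widely at 7 days, with 4.63, 6.17 and 5.09 in arrays 1, 2 and 3, the order of Ucp1 in these arrays. At 10 weeks it was 6.68, 6.48 and 6.39, 1.22 ± 0.30 above 7 days (adjusted p = 0.00845, limma) and 1.06 ± 0.30 above 24 hours (adjusted p = 0.0158, limma), the latter not called without 24-hour array 1 (0.0512) or 10-week array 1 (0.0592). Without 7-day arrays 2 and 3 the second-step difference of Pcx was 1.89 (adjusted p = 8.79e-05, limma). Its first-week difference, -0.16 and not called with all arrays (adjusted p = 0.863, limma), was then a called -0.83 (0.0195), and -0.59 without 7-day array 2 alone (0.0291). Of the 6 enzymes of this list, 4 were higher and 1 lower from 7 days to 10 weeks.

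The malate-aspartate shuttle, which shares Mdh2 and brings cytosolic NADH to the mitochondrion, had genes that dipped at 7 days. Of 8 genes of the shuttle and of citrate export, 4 were lower in the first week, and 5 were higher and 1 lower from 7 days to 10 weeks. Got2, called at both steps, was read from a probe set with all 10 neighbours on chromosome 5, while the gene is on chromosome 8. Which transcript that probe set reads was not tested. A second Got2 probe set, with its 10 neighbours on chromosome 8, was dimmer on average and was not the one taken. Got1, the cytosolic aspartate aminotransferase, fell by 0.32 ± 0.07 (adjusted p = 0.0139, limma) and rose by 0.67 ± 0.07 (adjusted p = 2.34e-05, limma). The fall was not called without 24-hour array 1 (0.0519), 24-hour array 2 (0.0549) or 7-day arrays 2 and 3 (0.101), and of the 4 decreases 0 were called without those 7-day arrays, 2 without 24-hour array 1 and 1 without 24-hour array 2. Slc25a11, the oxoglutarate carrier, rose by 0.47 ± 0.05 at the second step (adjusted p = 1.91e-05, limma), and Acly, which splits exported citrate for lipid synthesis, fell by 0.57 ± 0.11 (adjusted p = 0.00182, limma), a call lost without 7-day arrays 2 and 3 (adjusted p = 0.0672, limma). Aco1, the cytosolic aconitase, fell by 0.40 ± 0.08 (adjusted p = 0.00331, limma) and was -0.26 and not called without them (0.122).

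On the lactate side of pyruvate, Ldhb, the lactate dehydrogenase subunit of oxidative muscle, rose by 0.45 ± 0.06 from 7 days to 10 weeks (adjusted p = 0.000288, limma). The Ldhb probe set used has 9 of 10 neighbours on chromosome 19, while the gene and the neighbours of its second probe set are on chromosome 6, and which transcript it reads was not tested. Ldha, the subunit of glycolytic tissue, fell by 0.36 ± 0.06 at the same step (adjusted p = 0.000907, limma), which was not called without 7-day arrays 2 and 3 (adjusted p = 0.0503, limma). Ldhd, the D-lactate dehydrogenase, was 5.19 to 5.51 in the younger arrays and 7.32, 6.86 and 6.90 at 10 weeks, a rise of 1.63 ± 0.12 (adjusted p = 2.34e-06, limma). In all 2 of 6 genes of this list were higher and 1 lower at that step, beside 17.0% and 18.9% of all genes. In the first week 0 were called by limma, where 1 was called without 24-hour array 1 (Slc16a3, a lactate exporter, adjusted p = 0.0216).

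The pathways on either side of the cycle moved mostly upward at the second step. Of 15 measured respiratory chain and ATP synthase subunits 0 were called in the first week, and 8 were higher and 0 lower from 7 days to 10 weeks, with a median of 0.174. The latter count was 3 without 7-day arrays 2 and 3, 5 without 7-day array 1 or 2 alone, and 4 without 10-week array 1 or 2. Of 14 fatty acid oxidation genes 4 were higher and 0 lower in the first week, and 8 were higher and 2 lower from 7 days to 10 weeks, with medians of 0.028 and 0.266. The 4 first-week calls came to 0 without 7-day arrays 2 and 3 and to 1 without 24-hour array 1 or 2 or 7-day array 2 or 3 alone. In these lists, the probe sets used for Ndufs3, Cox6c, Cycs and Hadhb have neighbours mostly on a chromosome other than that of the gene. Which transcripts they read was not tested. Each of these genes also has a probe set with neighbours on its own chromosome, which was dimmer on average and was not the one taken. Echs1, a short-chain enoyl-CoA hydratase, rose by 0.66 ± 0.06 at the second step (adjusted p = 8.05e-06, limma). Of 4 assembly factors of succinate dehydrogenase 2 were higher at that step, and Sdhaf4 rose by 0.74 ± 0.17 (adjusted p = 0.00712, limma), but neither was called without 7-day arrays 2 and 3. Sdhaf3, the other, also lost its call without 24-hour array 1, 10-week array 1 or 2, or any single 7-day array. Of 3 measured genes of lipoate and thiamine supply 0 were called at that step.

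Known transcriptional regulators of mitochondrial genes did not share a course. Ppara, a nuclear receptor of fatty acid catabolism, rose by 0.55 ± 0.08 from 7 days to 10 weeks (adjusted p = 0.000309, limma), as did Esrrg, the estrogen-related receptor gamma, by 0.72 ± 0.08 (adjusted p = 4.47e-05, limma). Esrrg had fallen by 0.48 ± 0.08 in the first week (adjusted p = 0.00358, limma), which was -0.30 and not called without 7-day arrays 2 and 3 (adjusted p = 0.137, limma). The coactivators Ppargc1a and Ppargc1b had log2 differences of -0.47 ± 0.06 and -0.60 ± 0.09 between 10 weeks and 24 hours (adjusted p = 7.8e-05 and 0.000234, limma). Of 8 measured regulators 3 were higher and 3 lower from 7 days to 10 weeks, and these 6 calls came to 3 without 7-day arrays 2 and 3, either of them alone, or 10-week array 2.

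**Figure D5:**
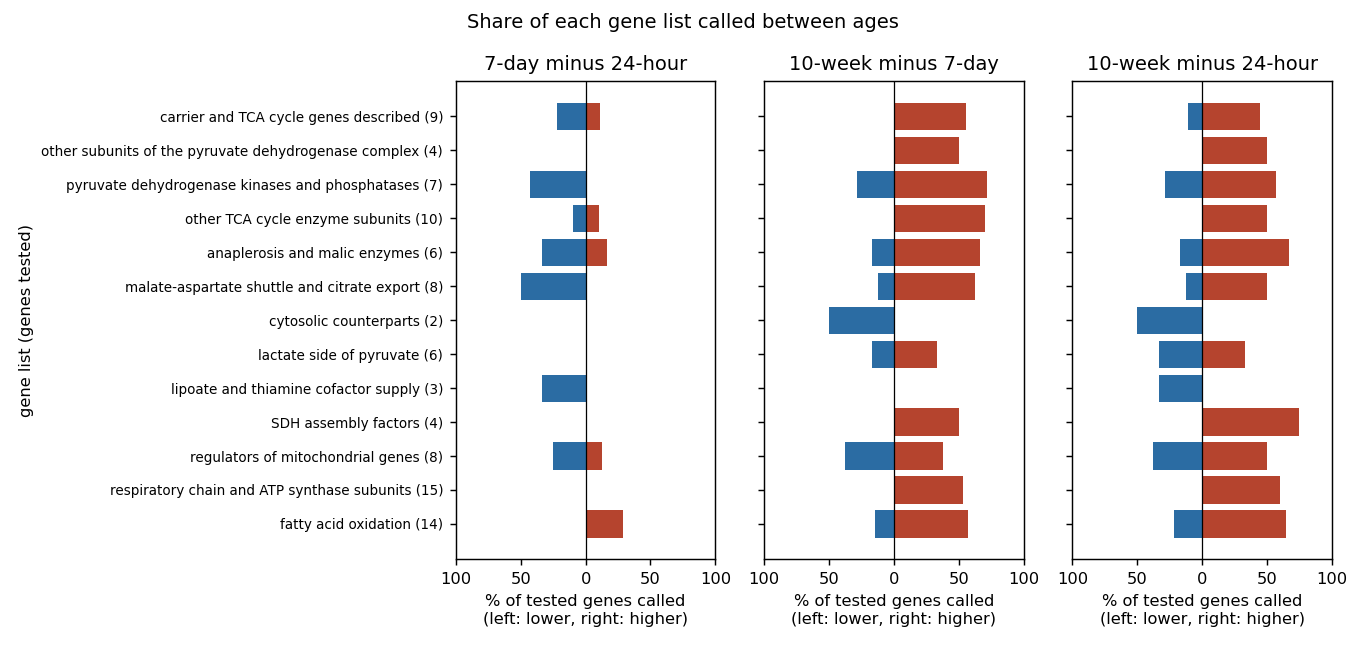
Share of the tested genes of each list (rows, with the number tested in brackets) called higher (right, red) or lower (left, blue) by limma at an adjusted p under 0.05 in 3 comparisons of age. The lists of the cycle, of the pyruvate dehydrogenase subunits and of the respiratory chain have bars to the right only in the comparisons with 10 weeks, apart from Idh3a among the 9 genes from 24 hours to 10 weeks; for all genes the shares were 17.0% higher and 18.9% lower from 7 days to 10 weeks.

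The median course of the 9 genes, each centred on its own mean, was shallow, from -0.131 in 7-day array 1 to 0.11 in 10-week array 1. The 5 other genes whose centred log2 values lay closest to it over the 9 arrays were Cass4, Slc2a8, Tti1, Olfr319 and Stk35, with root mean square distances of 0.029 to 0.034. Cass4, at 3.98 to 4.18, and Olfr319, at 2.95 to 3.20, lay under the array medians of 4.876 to 4.924 and may be background. The list is a description of nearness to a shallow course on 9 arrays and was not tested.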

How the data were processed

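The deposited table holds 1 log2 value per probe set and array from the authors; MAS5 5.0 is named in the submitters' processing notes, and how probes were summarised and arrays scaled is not given in the sources used here. Array medians ran from 4.876 to 4.924 and values were used as deposited. Of 35556 probe sets 21789 had 1 symbol in the platform table, of which 21698 were matched to a current symbol by Entrez id. The highest-mean probe set per gene left 19938 genes. The table gives no detection flags, and the number of arrays limits the precision.

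Limma 3.58.1 (R 4.3.3) fitted 1 mean per age to all 9 arrays, with contrasts, eBayes with an intensity trend and Benjamini-Hochberg adjustment over all genes; each gene is called at an adjusted p under 0.05. The fit was tested on simulated data. It recovered 12% to 24% of changes of 0.25 log2, 70% to 76% of changes of 0.5 and 96% to 98% of changes of 1. The simulation changed 50 genes by each size, far fewer than the 2009 to 7989 genes called in the data. The adjustment is stricter when few genes change, so these rates need not hold for the data. A small difference can still go uncalled. Gene pairs were compared by exact permutation tests (numpy 2.4.6, scipy 1.17.1); of 6 pairs planned, 5 could be tested. Alternatives covered scaling, variance prior, probe sets, features, arrays and each replicate.

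The genes and lists were chosen with earlier results of these data known. Genes named were the 10 listed, every gene of the dehydrogenase, kinase and phosphatase, and cycle lists, up to 3 called genes with the largest difference per other list and comparison, and the 5 nearest profiles.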

Additional observations from a re-analysis of the deposited data

How the results depend on the processing

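No call of the 9 genes changed sign under any alternative run. Leaving out 7-day arrays 2 and 3 changed most: all genes called went from 2009 to 516 in the first week and from 7165 to 4156 from 7 days to 10 weeks, 3 instead of 5 of the 9 genes were called at the second step, and the Mdh2 to Mdh1 ratio reached an adjusted exact permutation p of 0.0357. Fewer arrays are fitted there; beyond that the cause was not tested. With 1 array left out at a time, 1 to 3 of the 9 genes and 1149 to 2316 of all genes were called in the first week; the latter count was 1283, 1158 and 1149 without 24-hour arrays 1 and 2 and 7-day array 3. The counts of the 9 genes were otherwise within 1.5 times of those reported for centring, quantile normalization, variance prior, filter, probe set mean and features tested.

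With the replicate number as a replicate block, 2, 5 and 5 of the 9 genes were called in the 3 comparisons, and Mpc1 lost its first-week call (adjusted p = 0.0589, limma). It also lost it with all features tested (0.0702). Same-numbered arrays correlated between -0.174 and 0.133 in their deviations from the age means, and differently numbered arrays between -0.216 and 0.25. No stronger likeness of same-numbered arrays was seen. With 3 arrays per age these values cannot tell whether the numbers pair the samples. The pair of Mpc1 with Mpc2 was not run, since Mpc2 was not analysed here. The other Suclg2 probe set was chosen after seeing the data. Where signal lay near or under the array medians at some age, as for Pdk3, Pdp2, Ogdhl and Pcx, differences may be too small.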
